A study of Homo sapiens with 20 samples.

Results

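The dual-specificity MAP kinase phosphatases were followed through 4 states of U2OS cells, a human osteosarcoma line. The list held 10 genes, taken by symbol from the 20314 rows of a table of read counts per gene, and 9 of them had a row: DUSP1, DUSP2, DUSP4, DUSP5, DUSP6, DUSP7, DUSP8, DUSP10 and DUSP16. DUSP14 matched no row by symbol and was not analysed here. Of the 9, DUSP4 did not pass the filter on low counts, which left 8 genes in the test across all genes. RNA was sequenced from 5 libraries each of untreated cells, cells 1.5 h after ionizing radiation (IR) of 20 Gy, cells 7 days after the same dose, and cells with knockdown of NFKBIA by shRNA, which the study describes as not irradiated. NFKBIA encodes IκBα, the inhibitor that holds NF-κB in the cytoplasm. All groups were grown in the same serum-containing medium and harvested at the same time. The study made its inducible shRNA lines by lentiviral transduction and clonal selection with puromycin and induced the knockdown with doxycycline. Its methods name doxycycline-treated cells with scrambled shRNA as controls of such lines, but the labels do not say whether the untreated libraries used here are such cells. If they are not, vector, selection, doxycycline and knockdown cannot be told apart in that group. The study calls the libraries of the untreated and irradiated groups biological replicates, without saying whether these were separate cultures, so p-values measure only the spread between these libraries. In bulk RNA a change in every cell and a change in some of the cells cannot be told apart.

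MAP kinases (ERK, JNK and p38) are switched on by phosphorylation of a threonine and a tyrosine in their activation loop, and the phosphatases of this family remove both phosphates. Several of their genes are themselves transcribed within minutes to hours of MAP kinase or stress signalling, which makes them negative feedback regulators. DUSP1, DUSP2, DUSP4 and DUSP5 are the nuclear, inducible enzymes, DUSP6 and DUSP7 are cytoplasmic and act on ERK, and DUSP8, DUSP10 and DUSP16 act mainly on JNK and p38.

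Read totals on genes ran from 22535659 to 40390961 in untreated libraries, 34345867 to 39546228 at 1.5 h, 27547705 to 34307447 at 7 days and 26693224 to 33461262 with knockdown. Untreated replicate 5 had the lowest total and stood apart from its group: over all genes tested its root mean square distance from the mean of the other untreated libraries was 0.561 on the log2 scale, against 0.156 to 0.386 for the other 19 libraries. It was also the single untreated library sequenced on lane 3, while untreated replicates 1 to 4 were on lane 2. The 1.5 h libraries were on lanes 3 and 4, the 7 day libraries on lanes 4 and 5, and the knockdown libraries on lanes 5 and 6, so lane and group overlap only in part. For this reason the fold changes of the phosphatases against untreated cells and the counts in the gene lists are given with and without replicate 5, and values from within 1 lane are given where a lane held both groups. Within lane 3, and in a fit with lane as a factor, the link to untreated cells rests on replicate 5 alone, a single library assumed to vary like the other groups.

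NFKBIA itself was measured first, as a check on the knockdown label. Its level was 28.6, 23.5, 27.4, 35.0 and 42.0 CPM (counts-per-million, scaled by TMM factors) in the untreated libraries, in order of replicate, and 12.1 ± 0.667 CPM (SD, n = 5) with knockdown. Every knockdown library lay below every untreated one, and the log2 fold change was -1.36 ± 0.109 (SE) with an adjusted p of 4.87e-09 by edgeR's quasi-likelihood test, Benjamini-Hochberg adjusted. At 1.5 h NFKBIA stood at 82.1 ± 5.27 CPM and at 7 days at 30.8 ± 1.59 CPM (SD, n = 5).

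The cell line's mesenchymal markers were abundant. Their summed level was 6140 to 8050 CPM in untreated libraries, 5900 to 6200 CPM at 1.5 h, 5030 to 5560 CPM at 7 days and 5090 to 5420 CPM with knockdown, so that the 7 day and knockdown libraries lay below all untreated ones. COL1A1 had a mean of 1970 CPM in untreated cells, 1470 CPM at 7 days and 617 CPM with knockdown. SPARC had means of 2140, 1270 and 2170 CPM in the same order. Not all of the list fell at 7 days. ALPL had means of 26.9 CPM untreated and 45.4 CPM at 7 days, and THY1 of 188 and 202 CPM. Over all 20 libraries VIM was the most abundant of the list, while at 1.5 h SPARC had a mean of 2050 CPM and VIM of 2000 CPM. COL1A2 was the 1 of 8 genes that did not reach 1 CPM in any library. Of the epithelial markers 4 of 5 reached 1 CPM, led by KRT18. Among leukocyte markers 2 of 5 genes reached 1 CPM, and the most abundant was CD68. The summed leukocyte level was 22.9 to 27.7 CPM at 7 days against 2.38 to 8.47 CPM in untreated, 2.42 to 3.14 CPM in 1.5 h and 2.44 to 3.5 CPM in knockdown libraries. CD68 made up most of that 7 day level, with a mean of 23.2 CPM, while PTPRC, the pan-leukocyte marker CD45, was at 1.34 CPM at 7 days and 1.05 CPM in untreated cells. The part of these markers in the results on the phosphatases was not tested. Endothelial markers summed to 0.523 to 2.01 CPM, with VWF the most abundant.

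Levels of different genes were compared per kilobase of the deposited gene length. In untreated cells DUSP1, a nuclear phosphatase of JNK, p38 and ERK, was the most abundant at 19.9 ± 0.905 CPM per kilobase (SD, n = 5). DUSP7 followed at 9.47 ± 3.24, DUSP16 at 9.38 ± 1.21 and DUSP2 at 8.48 ± 1.61 CPM per kilobase, and these 3 did not differ beyond their spread. The DUSP7 mean includes untreated replicate 5, at 85.7 CPM against 42.3 to 50.2 CPM in the other untreated libraries. By the deposited length its second place rests on that library. DUSP5 stood at 5.9 ± 1.19, DUSP10 at 3.58 ± 0.336 and DUSP8 at 2.47 ± 0.522 CPM per kilobase. DUSP6 was far lower at 0.299 ± 0.0242 CPM per kilobase, and DUSP4 was close to the limit of detection at 0.0149 ± 0.0183. With the length of the longest GENCODE 29 transcript in place of the deposited length, DUSP2 and DUSP16 exchanged the third and the fourth place, DUSP7 went to 16.0 CPM per kilobase, and the other ranks stayed as they were.

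The 9 genes summed to 59.5 ± 1.47 CPM per kilobase in untreated cells, 79.2 ± 4.53 at 1.5 h, 77.8 ± 3.98 at 7 days and 53.8 ± 2.19 with NFKBIA knockdown. The make-up of that sum differed between the irradiated groups. DUSP1 held 35.8% ± 2.04 of it at 1.5 h and 46.1% ± 2.32 at 7 days, against 33.4% ± 1.77 in untreated cells. DUSP2 held 19.6% ± 1.19 at 1.5 h and 9.36% ± 0.46 at 7 days, against 14.3% ± 2.93 in untreated cells (SD, n = 5 throughout).

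**Figure D1:**
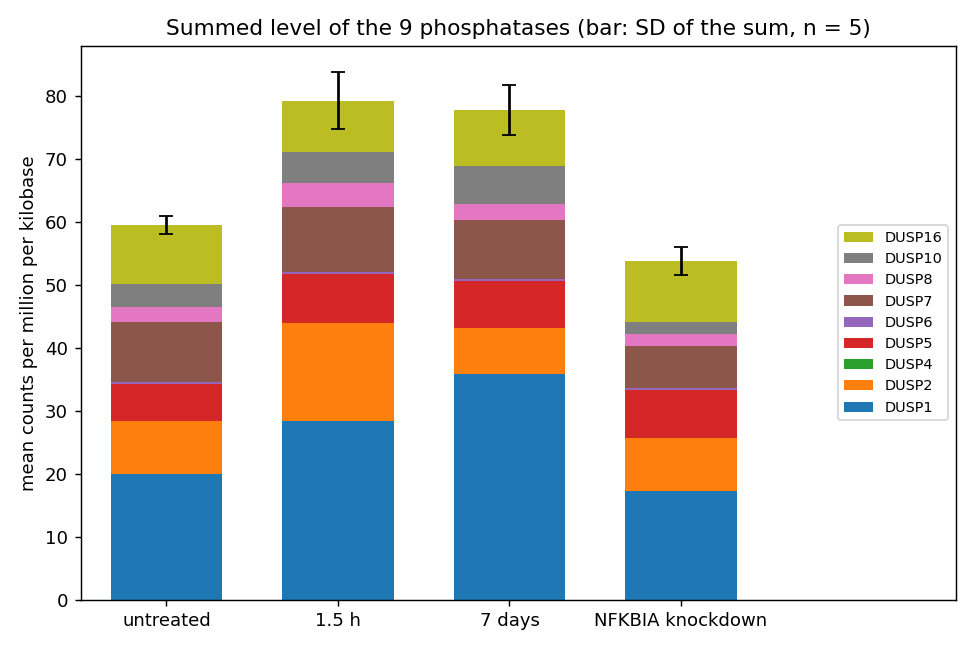
Stacked mean level of the 9 phosphatases in CPM per kilobase in the 4 groups, with the SD of the summed level over 5 libraries as the error bar. The sum was 59.5 in untreated cells, 79.2 at 1.5 h, 77.8 at 7 days and 53.8 with NFKBIA knockdown, and DUSP1 was the largest share in each group.

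The first comparison set cells 1.5 h after IR against untreated cells and asks which phosphatase genes changed in the acute response. A gene was called where the absolute log2 fold change was above 0.5 and the adjusted p under 0.05 in edgeR's quasi-likelihood test, Benjamini-Hochberg adjusted over the 14992 genes tested. Of the 8 phosphatases tested 3 were called higher, DUSP1, DUSP2 and DUSP8, and 0 lower, where 2.08% of all genes tested were called higher and 1.57% lower. With no threshold on the fold change the adjusted p alone gave 5 higher and 1 lower, against 11.1% and 10.2% of all genes. An unadjusted p under 0.05 gave the same counts of phosphatases, against 15.7% and 17.7% of all genes. DESeq2, with both thresholds, called 3 higher and 0 lower, against 2.01% and 1.72% of the genes it tested. The median log2 fold change of the 8 was 0.45 (0.42 without untreated replicate 5), against -0.0258 over all genes tested.

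DUSP2 (PAC1, ENSG00000158050), a nuclear inducible phosphatase, rose most. Its level was 17.8, 18.6, 15.6, 18.6 and 11.3 CPM in untreated libraries and 30.6, 26.7, 31.1, 30.6 and 31.0 CPM at 1.5 h. All 1.5 h libraries lay above all untreated ones, and untreated replicate 5 was the lowest of its group. The log2 fold change was 0.86 ± 0.0951 (SE; adjusted p 1.21e-06 by edgeR's quasi-likelihood test, Benjamini-Hochberg adjusted), 0.76 without untreated replicate 5 and 1.38 within lane 3.

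DUSP1 (MKP-1, ENSG00000120129) also rose. It measured 38.5, 39.2, 40.1, 43.2 and 39.5 CPM in untreated libraries and 66.8, 53.7, 50.2, 56.2 and 59.5 CPM at 1.5 h, again with no overlap between the groups. Its log2 fold change of 0.51 ± 0.0774 (SE; adjusted p 6.21e-05 by the same edgeR test, Benjamini-Hochberg adjusted) sat close to the threshold of 0.5, was 0.50 without untreated replicate 5 and 0.52 within lane 3, and was 0.46 without 1.5 h replicate 1, which ended the call. The call was also lost with upper-quartile factors, at 0.50, while the adjusted p stayed under 0.05 in each of these.

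DUSP8 (ENSG00000184545), a phosphatase of JNK and p38, measured 10.2, 9.33, 10.3, 11.7 and 15.4 CPM in untreated libraries and 22.3, 15.1, 16.0, 16.8 and 17.5 CPM at 1.5 h. Here the groups overlapped, since untreated replicate 5 lay above 1.5 h replicate 2. The log2 fold change was 0.64 ± 0.115 (SE; adjusted p 0.000434 by edgeR's quasi-likelihood test, Benjamini-Hochberg adjusted) and 0.75 without untreated replicate 5. Within lane 3, where replicate 5 is the only untreated library, it was 0.20 with an adjusted p of 0.481 by the edgeR test, and with lane as a factor 0.21 with an adjusted p of 0.371, so the call did not hold there, nor with Bonferroni adjustment (adjusted p 0.283). Over its alternatives the adjusted p ran from 4.27e-06 to 0.481.

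DUSP10 (MKP-5, ENSG00000143507), which acts on JNK and p38, was just outside the call with a log2 fold change of 0.49 ± 0.0615 (SE; adjusted p 7.33e-06 by edgeR's quasi-likelihood test, Benjamini-Hochberg adjusted). Its libraries measured 13.7, 10.5, 12.4, 12.6 and 12.9 CPM untreated and 16.5, 17.3, 17.1, 18.3 and 17.8 CPM at 1.5 h, and these did not overlap. It was called without untreated replicate 1, at 0.53, without 1.5 h replicate 1, at 0.51, and in a fit of the 2 groups alone, at 0.51. It was not called without untreated replicate 5, at 0.49, within lane 3, at 0.39, or with lane as a factor, at 0.40, and its lowest value with 1 library left out was 0.43. DUSP5, the nuclear ERK phosphatase, had a log2 fold change of 0.40, which was 0.29 without untreated replicate 5 and 0.98 within lane 3, where the untreated arm was replicate 5 alone, its lowest untreated library at 10.4 CPM. DUSP16 was at -0.22 (-0.20 without replicate 5, -0.34 within lane 3), DUSP6 at -0.16 (-0.17 in both) and DUSP7 at 0.13, none of them called.

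The cytoplasmic ERK phosphatase DUSP7 depended most on the untreated library that stood apart. Its untreated libraries measured 50.2, 42.7, 46.5, 42.3 and 85.7 CPM, the last being replicate 5, and its 1.5 h libraries 65.2, 56.6, 51.6, 59.5 and 58.7 CPM. Without replicate 5 all 1.5 h libraries lay above the untreated ones and the log2 fold change was 0.35, while within lane 3 it was -0.57, a turn in direction that passed both thresholds and was called lower there and with lane as a factor (-0.57).

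**Figure D2:**
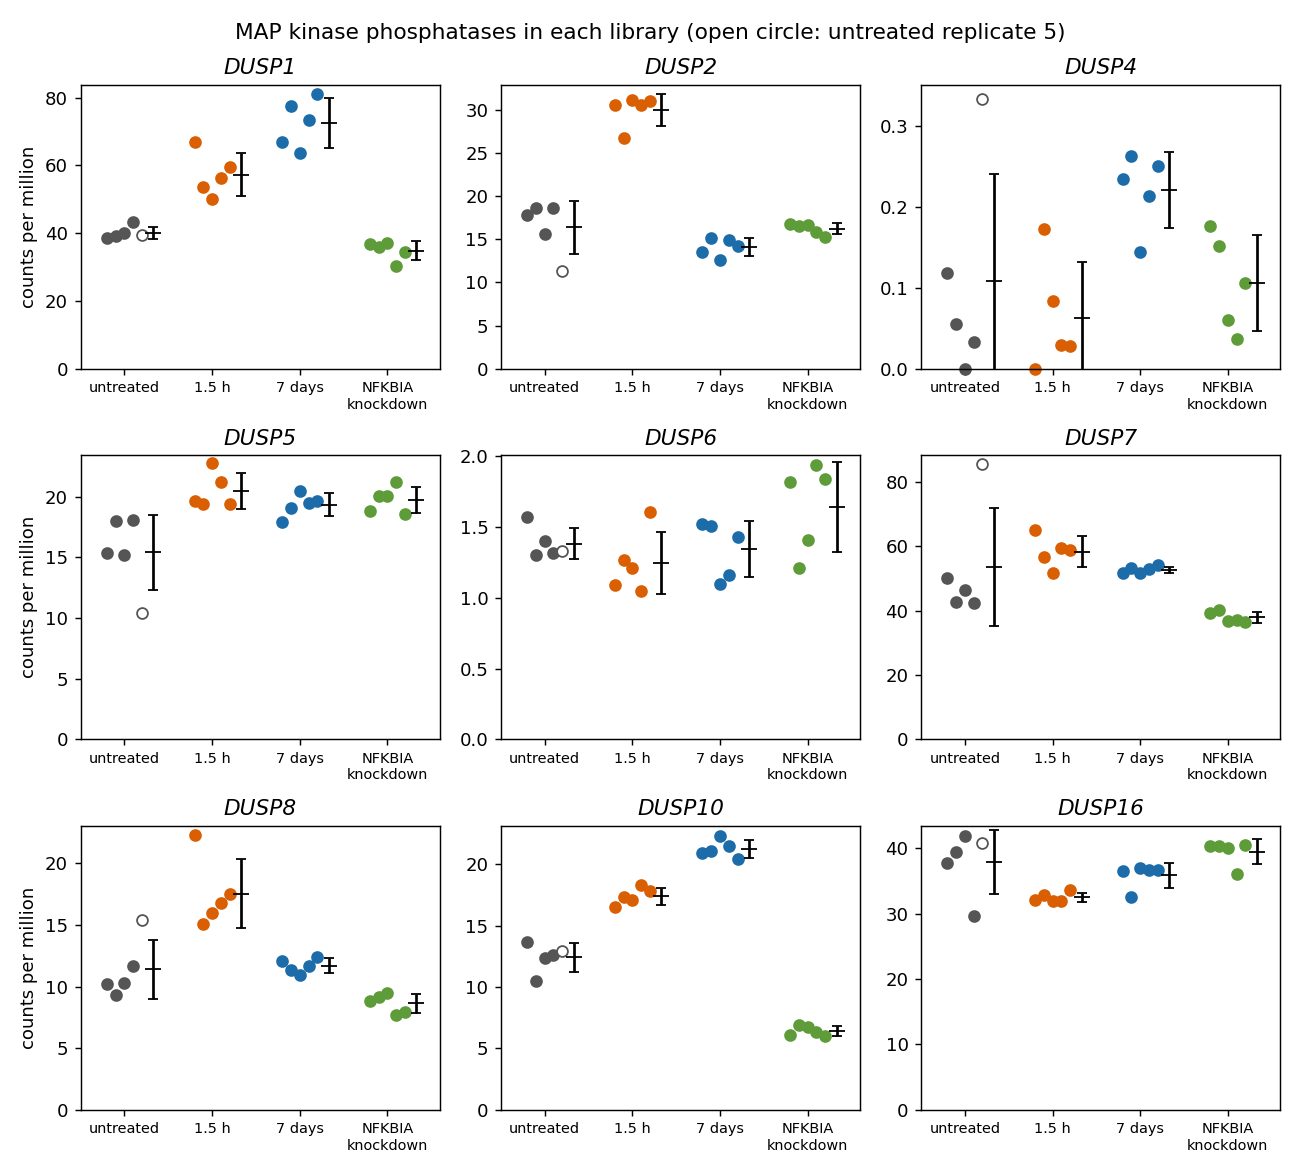
CPM of the 9 phosphatases in each of the 20 libraries, 1 panel per gene, with points for libraries and a bar for mean ± SD over 5 libraries (bars of DUSP4 are clipped at 0). The open circle is untreated replicate 5, which lies at 85.7 for DUSP7 and at 11.3 for DUSP2.

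**Figure D3:**
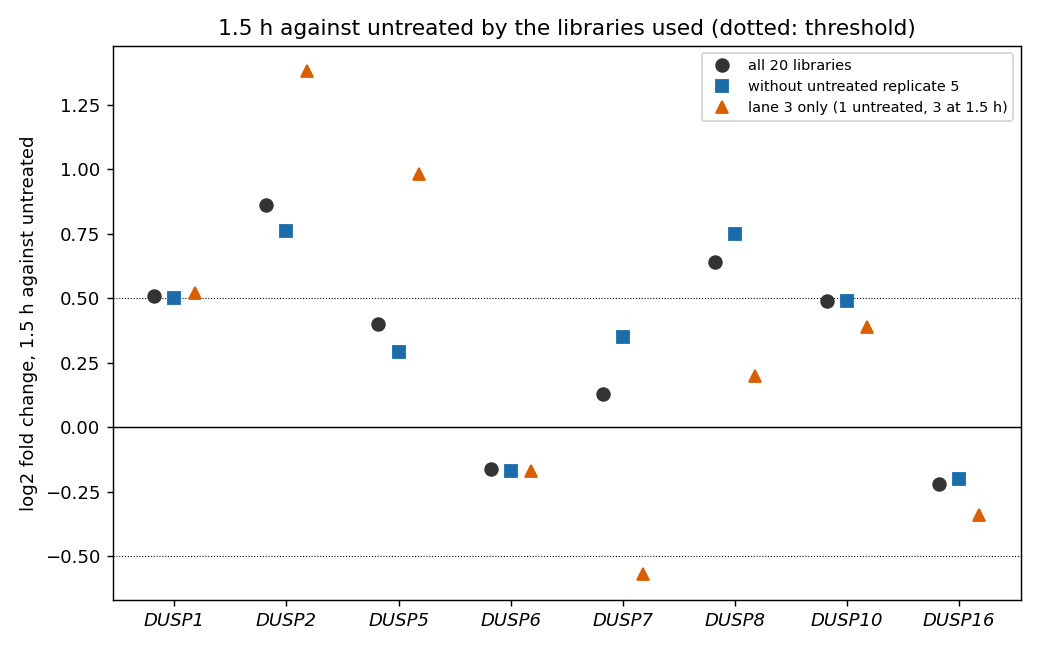
Log2 fold change of the 8 phosphatases tested at 1.5 h against untreated cells from all 20 libraries (circles), without untreated replicate 5 (squares) and within sequencing lane 3 (triangles), with dotted lines at the threshold of 0.5 in either direction. DUSP1 stays near 0.5 in all 3, DUSP8 goes from 0.64 to 0.20 within lane 3, and DUSP7 turns from 0.13 to -0.57.

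Upstream sequence is shown for the 3 genes called at 1.5 h and for DUSP10. Of the 10 genes on the list 8 had an entry in the RefSeq promoter table (GRCh38.p14), with 2 entries for DUSP10 (9 in all). The 250 bases before each start, read 5′ to 3′ on the gene's strand (minus for all shown), were searched on both strands for the cAMP response element TGACGTCA, the AP-1 element TGANTCA, the GC box GGGCGG, the E-box CACGTG, the TATA box TATAAA, and by name for the NF-kB decamer, the CArG box and the p53 decamer. Capitals mark cAMP response elements and TATA boxes. Bases just after the start were found within a GENCODE 29 transcript of the gene for DUSP1, DUSP2 and DUSP10. Where in the transcript they lay was not recorded, so the match does not place the start. For DUSP8 they were not found in the part of the transcripts searched, so that its window rests on RefSeq alone.
DUSP1 chr5:172771196-172771445: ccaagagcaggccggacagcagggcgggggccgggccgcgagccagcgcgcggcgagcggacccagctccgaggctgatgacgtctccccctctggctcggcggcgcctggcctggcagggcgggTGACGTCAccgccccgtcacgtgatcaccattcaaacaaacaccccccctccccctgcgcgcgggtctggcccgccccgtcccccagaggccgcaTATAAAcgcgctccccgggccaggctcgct
DUSP2 chr2:96145441-96145690: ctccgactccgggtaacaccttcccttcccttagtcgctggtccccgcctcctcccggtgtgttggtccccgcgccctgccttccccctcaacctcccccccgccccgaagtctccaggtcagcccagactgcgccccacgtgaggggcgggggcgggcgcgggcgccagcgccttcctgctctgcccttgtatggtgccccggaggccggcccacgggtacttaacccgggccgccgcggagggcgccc
DUSP8 chr11:1572272-1572521: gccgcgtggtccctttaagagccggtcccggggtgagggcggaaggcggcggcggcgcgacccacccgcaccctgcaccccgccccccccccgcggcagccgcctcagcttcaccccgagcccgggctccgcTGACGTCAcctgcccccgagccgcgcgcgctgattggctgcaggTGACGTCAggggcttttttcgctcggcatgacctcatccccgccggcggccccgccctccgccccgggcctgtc
DUSP10 chr1:221736901-221737150: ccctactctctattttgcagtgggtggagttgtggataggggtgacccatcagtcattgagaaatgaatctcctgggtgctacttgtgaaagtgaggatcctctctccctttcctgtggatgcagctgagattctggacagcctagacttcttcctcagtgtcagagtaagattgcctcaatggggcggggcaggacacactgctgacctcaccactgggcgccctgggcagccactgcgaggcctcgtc
DUSP10 chr1:221742090-221742339: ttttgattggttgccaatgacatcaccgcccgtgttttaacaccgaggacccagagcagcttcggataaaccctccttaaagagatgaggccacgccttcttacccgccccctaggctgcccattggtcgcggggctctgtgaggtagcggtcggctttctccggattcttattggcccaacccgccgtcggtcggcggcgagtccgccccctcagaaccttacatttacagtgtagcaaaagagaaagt

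DUSP1 held 1 cAMP response element, 1 TATA box, 4 GC boxes and 1 E-box, and DUSP8 held 2 cAMP response elements and 4 GC boxes, with no overlap between matches. DUSP2 held 3 GC boxes and 1 E-box, and the DUSP10 windows held 1 and 3 GC boxes. None of these 5 windows held a match to the AP-1 element, the NF-kB decamer, the CArG box or the p53 decamer. Over all 35116 promoter windows of that length, 1.65% held the cAMP response element, 6.57% the AP-1 element, 42.6% the GC box, 6.34% the E-box, 10.7% the TATA box, 5.21% the NF-kB decamer, 1.16% the CArG box and 5.57% the p53 decamer. A match here is a description of letters and not a bound site.

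The genes around the phosphatases gave the context of the 1.5 h change. Of 13 AP-1 and early genes tested 7 were called higher and 0 lower, with a median log2 fold change of 0.61. They were led by the stress-induced factor ATF3 (2.60 ± 0.0856 SE), FOSB (1.97 ± 0.234), JUNB (1.14 ± 0.0849) and EGR2 (0.90 ± 0.175). FOSB was low, with means of 0.54 CPM untreated and 1.98 CPM at 1.5 h. Among 7 phosphatases of MAP kinases from the tyrosine and PPM families 1 was called, PPM1D (WIP1, a p53-induced phosphatase that acts on p38), at 1.37 ± 0.0584. Of 11 ERK output genes tested 2 were called higher, IER3 (1.37 ± 0.0835) and the receptor EPHA2 (0.55 ± 0.0553), and 1 lower, PHLDA1 (-1.0 ± 0.127). By edgeR 0 genes were called among 12 other dual-specificity phosphatases, 13 MAP kinases, 7 MAP kinase kinases, 21 MAP kinase kinase kinases, 10 MAP kinase activated kinases, 4 Sprouty and SPRED inhibitors and 8 scaffolds tested, and DESeq2 also called 0 in each. With no threshold on the fold change the adjusted p alone gave, in the same order, 2, 4, 3, 3, 2, 1 and 2 genes, and an unadjusted p under 0.05 gave 3, 4, 4, 4, 2, 1 and 3. Without untreated replicate 5, an alternative chosen after seeing the data, 10 of the 13 AP-1 and early genes were called higher, EGR1 (0.61), JUND (0.52) and FOSL1 (1.19) being the 3 added. In that fit 327 of 15082 genes tested were called higher and 167 lower. Of the 11 ERK output genes 3 were then called higher and 1 lower, since EGR1 and FOSL1 are also in that list while EPHA2 (0.49) was no longer called. The counts in the other lists did not change.

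Cells 7 days after IR were then set against untreated cells, a comparison that addresses the late state after damage. Of the 8 phosphatases 2 were called higher, DUSP1 and DUSP10, and 0 lower, where 16.7% of all genes tested were called higher and 14.4% lower. A count of 2 of 8 is close to that background. With no threshold on the fold change the adjusted p alone gave 3 higher and 1 lower, against 32.9% and 31.2% of all genes, no larger a share in all than the background. An unadjusted p under 0.05 gave the same counts of phosphatases, against 34.5% and 32.8%. DESeq2, with both thresholds, called 2 higher and 0 lower, against 16.2% and 12.4% of the genes it tested. The median log2 fold change of the 8 was 0.02 (0.17 without untreated replicate 5), against 0.0122 over all genes tested. The level of CD68 given above was also higher and the summed level of the mesenchymal markers lower in the 7 day libraries, and their part in these results was not tested.

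DUSP1 measured 66.9, 77.5, 63.7, 73.4 and 81.2 CPM at 7 days, each above the highest untreated library at 43.2 CPM. Its log2 fold change was 0.85 ± 0.0776 (SE; adjusted p 4.85e-09 by edgeR's quasi-likelihood test, Benjamini-Hochberg adjusted) and 0.83 without untreated replicate 5. DUSP10 measured 20.9, 21.1, 22.3, 21.5 and 20.4 CPM, each above the highest untreated library at 13.7 CPM. Its log2 fold change was 0.78 ± 0.0615 (SE; adjusted p 5.76e-10 by the same edgeR test, Benjamini-Hochberg adjusted) and 0.77 without untreated replicate 5. No lane held both untreated and 7 day libraries, and with lane as a factor the values were 0.85 for DUSP1 and 0.62 for DUSP10.

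The other nuclear enzymes were not called. DUSP2 stood at 13.5, 15.2, 12.6, 14.9 and 14.2 CPM. Untreated replicates 1 to 4, from 15.6 to 18.6 CPM, lay above all of these, and replicate 5 at 11.3 CPM lay below. The log2 fold change of DUSP2 was -0.23, -0.35 without replicate 5 (adjusted p 7.22e-05 by edgeR, with a range of 7.22e-05 to 1.0 over its alternatives) and 0.28 with lane as a factor. DUSP5 stood at 17.9 to 20.5 CPM against 10.4 to 18.1 CPM untreated, with a log2 fold change of 0.32 that was 0.20 without replicate 5 and 0.85 with lane as a factor, where it was called. DUSP8 was at 0.05 (0.15 without replicate 5, -0.34 with lane as a factor) and DUSP6 at -0.05 (-0.08 without replicate 5). DUSP16 was at -0.08 (-0.07 without replicate 5, -0.26 with lane as a factor) and ran from -0.18 to -0.04 with 1 library left out. DUSP7 was at -0.01. Its value was 0.19 without untreated replicate 5, 0.01 with upper-quartile factors and -0.74 with lane as a factor, where it was called lower, so its direction is not set by these data.

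The neighbouring genes were read in the same comparison. Of 12 other dual-specificity phosphatases tested 2 were called higher and 3 lower, DUSP27 (-1.52 ± 0.239 SE), the ERK phosphatase DUSP9 (-1.17 ± 0.106), DUSP15 (-1.12 ± 0.126) and, higher, DUSP3 (0.73 ± 0.0474). Of 7 tyrosine and PPM family phosphatases 4 were called higher, PTPN5 (1.13 ± 0.143), PTPRR (0.95 ± 0.0728), PTPN7 (0.77 ± 0.073) and PPM1D (0.70 ± 0.0578). Of 13 MAP kinases 5 were called higher and 0 lower. The largest were the p38 isoforms MAPK13 (1.75 ± 0.117), MAPK11 (0.83 ± 0.148) and MAPK12 (0.63 ± 0.101), and MAPK10 (JNK3, 1.39 ± 0.167). DUSP27 had a mean of 0.607 CPM at 7 days and MAPK10 of 0.586 CPM untreated.

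Upstream of them, MAP2K6, a p38 kinase kinase, fell by 3.03 on the log2 scale and MAP2K3 rose by 0.54, the 2 called among 7 kinase kinases. MAP2K6 was low, with means of 2.39 CPM untreated and 0.295 CPM at 7 days. MAP3K4 (-0.68 ± 0.0402 SE) and ZAK (-0.51 ± 0.0857) were the 2 of 21 kinase kinase kinases called. RPS6KA2 (-0.77 ± 0.153) and MAPKAPK3 (0.52 ± 0.0349) were called among 10 MAP kinase activated kinases, SPRED3 (1.03 ± 0.14) among 4 Sprouty and SPRED genes, and KSR2 (0.66 ± 0.147) and KSR1 (-0.62 ± 0.084) among 8 scaffolds. Of 11 ERK output genes 2 were called higher, EPHA4 (1.32 ± 0.0861) and CCND1 (0.98 ± 0.0471), and 0 lower. Among the 13 AP-1 and early genes 2 were called higher, FOSB (2.09 ± 0.234) and ATF3 (0.93 ± 0.0838), and 2 lower, JUND (-0.63 ± 0.124) and EGR2 (-0.63 ± 0.189). FOSB had means of 0.54 CPM untreated and 2.16 CPM at 7 days. Without untreated replicate 5, MAP2K3 (0.45), ZAK (-0.47) and EGR2 (-0.43) were no longer called, while MYC (0.60) and FOSL1 (0.89) were. The counts were then 4 higher and 1 lower of 13 AP-1 and early genes, 3 higher and 0 lower of 11 ERK output genes, 0 higher and 1 lower of 7 kinase kinases and 0 higher and 1 lower of 21 kinase kinase kinases, and those in the other lists did not change. Of all 15082 genes tested in that fit 2470 were called higher and 2138 lower.

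NFKBIA knockdown was compared with untreated cells to ask what loss of IκBα does without irradiation. Of the 8 phosphatases 1 was called lower, DUSP10, and 0 higher, where 7.53% of all genes tested were called lower and 5.18% higher. DUSP10 measured 6.09, 6.88, 6.76, 6.3 and 6.02 CPM with knockdown, each below the lowest untreated library at 10.5 CPM. Its log2 fold change was -0.95 ± 0.0657 (SE; adjusted p 5.16e-10 by edgeR's quasi-likelihood test, Benjamini-Hochberg adjusted), also -0.95 without untreated replicate 5. DESeq2, with both thresholds, called 2 lower and 0 higher, against 7.41% and 4.71% of the genes it tested. With no threshold on the fold change the adjusted p alone gave 4 lower and 1 higher, against 21.1% and 19.5% of all genes. An unadjusted p under 0.05 gave the same counts of phosphatases, against 25.1% and 23.5%. The summed level of the mesenchymal markers was also lower with knockdown, and its part in these results was not tested. The median log2 fold change of the 8 was -0.11 (-0.18 without untreated replicate 5), against -0.00804 over all genes tested.

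DUSP7 was just outside the call at -0.49 ± 0.135 (SE; adjusted p 0.00625 by edgeR's quasi-likelihood test, Benjamini-Hochberg adjusted). Its knockdown libraries measured 39.1, 40.1, 36.8, 37.1 and 36.4 CPM, all below the lowest untreated one at 42.3 CPM. It was called without untreated replicate 1 (-0.51), 2 (-0.56), 3 (-0.53) or 4 (-0.58) and without knockdown replicate 1 (-0.50) or 2 (-0.51), while without untreated replicate 5 it was -0.28. RLE factors (-0.50), no filter (-0.51), a minimum of 10 counts in every library (-0.51), DESeq2 (-0.51) and lane as a factor (-1.17) also gave the call. DUSP8 stood at -0.38, DUSP1 at -0.20, DUSP5 at 0.35, DUSP6 at 0.24, DUSP16 at 0.06 and DUSP2 at -0.02, none of them called. Without untreated replicate 5 these were -0.28, -0.22, 0.23, 0.21, 0.07 and -0.14, again with none called. With lane as a factor DUSP5 was at 0.76 and DUSP2 at 0.55, both called higher. DUSP8 was at -0.74 and DUSP6 at 0.60 in that fit, neither of them called. With upper-quartile factors DUSP2 was at 0.00. No lane held both untreated and knockdown libraries, and with lane as a factor DUSP10 was at -1.20.

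Among the surrounding genes, DUSP15 (-0.97 ± 0.125 SE) and DUSP19 (0.59 ± 0.136) were the 2 of 12 other dual-specificity phosphatases, PTPN5 (0.87 ± 0.146) the 1 of 7 tyrosine and PPM family genes, and MAPK13 (0.96 ± 0.122) and MAPK4 (-1.47 ± 0.383, a gene below 1 CPM) the 2 of 13 MAP kinases. MAP3K8 (-0.63 ± 0.103), SPRED3 (0.85 ± 0.141), ETV1 (0.75 ± 0.129) and IER3 (-0.51 ± 0.0831) were called in their lists, and ATF3 (-0.62 ± 0.0871) and EGR2 (-0.60 ± 0.189) were the 2 of 13 AP-1 and early genes, both lower. Of the 7 kinase kinases, 10 MAP kinase activated kinases and 8 scaffolds 0 were called by edgeR or DESeq2. With no threshold on the fold change the adjusted p alone gave 3, 4 and 3 genes, and an unadjusted p under 0.05 gave 5, 4 and 3. Without untreated replicate 5, DUSP19 (0.47), IER3 (-0.49) and EGR2 (-0.41) were no longer called. The counts were then 0 higher and 1 lower of 12 other dual-specificity phosphatases and 1 higher and 0 lower of 11 ERK output genes. Of 13 AP-1 and early genes 0 were higher and 1 lower, and the counts in the other lists did not change. Of all 15082 genes tested in that fit 759 were called higher and 1039 lower.

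The irradiated groups were compared directly, 7 days against 1.5 h. Of the 8 phosphatases 2 were called lower, DUSP2 and DUSP8, and 0 higher, where 12.6% of all genes tested were called lower and 16.8% higher. DUSP2 fell by 1.09 on the log2 scale (SE 0.096; adjusted p 3.16e-09 by edgeR's quasi-likelihood test, Benjamini-Hochberg adjusted), with 12.6 to 15.2 CPM at 7 days against 26.7 to 31.1 CPM at 1.5 h, and by 1.12 within lane 4, which held 2 libraries of each group. DUSP8 measured 12.1, 11.3, 10.9, 11.7 and 12.4 CPM at 7 days, all below the lowest 1.5 h library at 15.1 CPM, and fell by 0.59 (SE 0.114; adjusted p 0.000149 by the same edgeR test, Benjamini-Hochberg adjusted) and by 0.57 within lane 4. With Bonferroni adjustment the DUSP8 call was lost. DESeq2 and edgeR without a filter on low counts each called DUSP4 higher as well, at 5 to 8 counts per library against 0 to 6.

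DUSP1 and DUSP10 went the other way without reaching the fold threshold. DUSP1 was higher at 7 days by 0.34 and DUSP10 by 0.29, with 0.30 and 0.20 within lane 4. DUSP10 did not overlap between the groups, while for DUSP1 the 1.5 h replicate 1 at 66.8 CPM lay above 7 day replicate 3 at 63.7 CPM. DUSP16 stood at 0.14, DUSP6 at 0.10, DUSP5 at -0.08 and DUSP7 at -0.15, and within lane 4 at 0.06, 0.16, -0.15 and -0.19.

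Around them, 3 of 12 other dual-specificity phosphatases were called higher and 3 lower, with DUSP27 (-1.13), DUSP9 (-1.08), DUSP15 (-0.99) and DUSP3 (0.70) the largest. Of 13 AP-1 and early genes 6 were called lower and 0 higher, led by ATF3 (-1.67), EGR2 (-1.52), JUNB (-1.37) and JUND (-1.08). The tyrosine and PPM families had 3 of 7 genes higher and 1 lower, PTPN5 (1.31), PTPN7 (0.80), PTPRR (0.65) and PPM1D (-0.68). Of 13 MAP kinases 5 were higher, with MAPK13 (1.56), MAPK10 (1.15), MAPK11 (0.79) and MAPK12 (0.71) the largest. The upstream kinases called were all lower, MAP2K6 (-3.01), MAP3K4 (-0.61), ZAK (-0.59) and MAP3K2 (-0.53). Downstream of the MAP kinases MAPKAPK3 (0.64), MKNK1 (0.53) and RPS6KA2 (-0.61) were called, as were EPHA4 (1.31), PHLDA1 (1.17), CCND1 (0.91) and IER3 (-1.15) among 11 ERK output genes. SPRED3 (0.94) and the scaffolds KSR2 (0.79) and KSR1 (-0.65) were also called. DUSP27 and MAP2K6 had means below 1 CPM at 7 days, and MAPK10 at 1.5 h.

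The last comparison set 7 days against NFKBIA knockdown, and it shares its libraries with the comparisons above. Of the 8 phosphatases 2 were called higher, DUSP1 and DUSP10, and 0 lower, where 15.8% of all genes tested were called higher and 9.89% lower. DUSP10 had the largest difference of the 8, a log2 fold change of 1.73 ± 0.0648 (SE; adjusted p 5.14e-15 by edgeR's quasi-likelihood test, Benjamini-Hochberg adjusted) and 1.81 within lane 5, with 20.4 to 22.3 CPM at 7 days and 6.02 to 6.88 CPM with knockdown. DUSP1 measured 36.7, 36.0, 37.1, 30.2 and 34.4 CPM with knockdown, below every 7 day library, and differed by 1.06 ± 0.078 (SE; adjusted p 2.44e-10 by the same edgeR test, Benjamini-Hochberg adjusted) and by 0.97 within lane 5, which held 3 libraries at 7 days and 1 with knockdown. DUSP7 stood at 0.48, DUSP8 at 0.43 and DUSP2 at -0.21, all 3 under the fold threshold. Their adjusted p was 0.00478, 0.00379 and 0.076 by edgeR's quasi-likelihood test, Benjamini-Hochberg adjusted. Their ranges did not overlap between these groups, and the share of all genes without overlap was not computed. Within lane 5 the values were 0.42, 0.39 and -0.28. DUSP16 stood at -0.14, DUSP5 at -0.03 and DUSP6 at -0.29, and within lane 5 at -0.14, 0.08 and -0.59.

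In the lists around them, DUSP27 (-1.73), DUSP9 (-0.86), DUSP11 (0.70) and DUSP3 (0.54) were the 4 called of 12 other dual-specificity phosphatases in 7 days against knockdown. PTPRR (1.01), PPM1D (0.80) and PTPN7 (0.60) were called among 7 tyrosine and PPM family genes, and MAPK4 (1.45, below 1 CPM), MAPK10 (1.24), MAPK11 (0.94) and MAPK13 (0.79) among 13 MAP kinases. The upstream kinases called were MAP2K6 (-3.10), MAP2K3 (0.70) and MAP3K8 (0.50). Below the MAP kinases, RPS6KA2 (-0.68) and MKNK1 (0.61) were called, and 4 of 11 ERK output genes were higher and 1 lower, with EPHA4 (1.68), CCND1 (1.19), ETV1 (-0.95) and FOSL1 (0.81) the largest. KSR2 (1.08) was the 1 scaffold called, and of 4 Sprouty and SPRED genes 0 were called by edgeR or DESeq2, with 0 by the adjusted p alone and 1 by an unadjusted p under 0.05 at any fold change. Of 13 AP-1 and early genes 4 were higher, FOSB (2.62), ATF3 (1.55), FOSL1 (0.81) and MYC (0.66). DUSP27 and MAP2K6 had means below 1 CPM at 7 days, and MAPK10 and FOSB with knockdown.

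**Figure D4:**
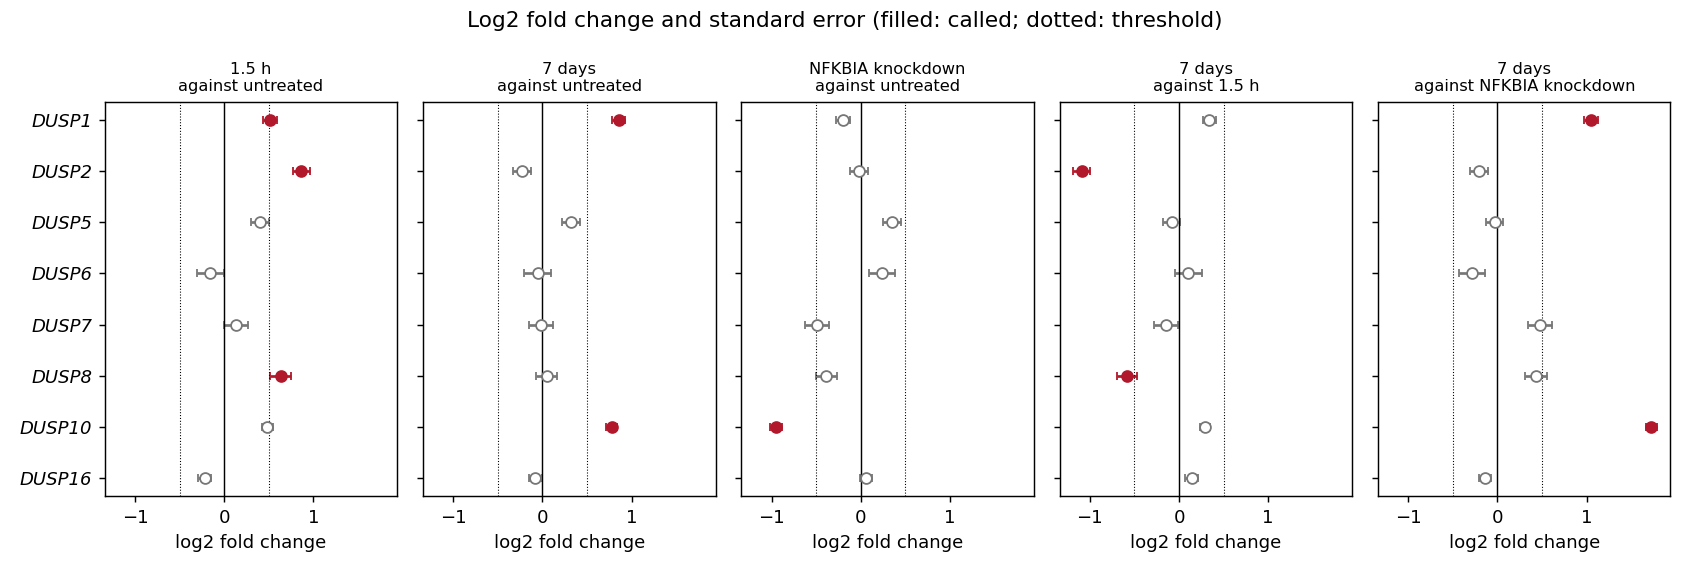
Log2 fold change with standard error of the 8 phosphatases tested in each of the 5 comparisons, with dotted lines at 0.5 in either direction and filled points for genes called by edgeR. DUSP10 runs from -0.95 with NFKBIA knockdown to 0.78 at 7 days against untreated cells, and DUSP2 is 0.86 at 1.5 h and -0.23 at 7 days.

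Across the 4 groups the order of levels differed from gene to gene. For DUSP10 it was knockdown, untreated, 1.5 h and 7 days from lowest to highest, and no neighbours in that order overlapped. For DUSP1 the order was the same, with 1.5 h and 7 days overlapping. DUSP2 was highest at 1.5 h, apart from the other 3 groups, of which untreated overlapped with both 7 days and knockdown. DUSP8 was lowest with knockdown and highest at 1.5 h, and its untreated libraries overlapped with all 3 other groups. DUSP5 was lowest in untreated cells, and its other 3 groups overlapped. DUSP16 ran from 32.5 ± 0.705 CPM at 1.5 h to 39.5 ± 1.97 CPM with knockdown, with untreated libraries spread from 29.6 to 41.8 CPM.

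The lowest members had few counts. DUSP6, the cytoplasmic ERK phosphatase MKP-3, had 28 to 62 counts per library and group means from 1.25 ± 0.222 to 1.65 ± 0.318 CPM. It was not called in any of the 5 comparisons, and its log2 fold change farthest from 0 was -0.29 for 7 days against knockdown, with an adjusted p of 0.101 by edgeR and a range of 0.0231 to 1.0 over the alternatives. It was -0.40 without knockdown replicate 2 and -0.59 within lane 5. DUSP6 shares 1875 exon bases with the antisense gene AC024909.2 in GENCODE 29, and since the strand setting of the counting is not given in the sources used here, reads of the pair cannot be told apart. Genes on the other strand also overlap DUSP1, DUSP8 and DUSP16, with 0 shared exon bases. DUSP4 (MKP-2) had 4, 2, 0, 1 and 7 counts in untreated libraries, 0, 6, 3, 1 and 1 at 1.5 h, 8, 8, 5, 7 and 7 at 7 days and 6, 5, 2, 1 and 3 with knockdown. The groups overlapped in all 5 comparisons. A two-sided exact permutation test of mean log2 CPM gave DUSP4 unadjusted p-values of 0.611 for 1.5 h, 0.0794 for 7 days and 0.683 for knockdown, each against untreated. The same exact permutation test gave 0.0159 for 7 days against 1.5 h and 0.0238 for 7 days against knockdown, 5 of 45 such tests run, where 0.00794 is the smallest value the design allows. Without the filter edgeR gave a log2 fold change of 1.74 for 7 days against 1.5 h (adjusted p 0.0217, Benjamini-Hochberg) and DESeq2 1.81 (adjusted p 0.0223), at counts this low a value with little precision.

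Genes of like pattern were sought by the distance between the 4 group means of log2 CPM, each gene centred on its own mean. For DUSP10, the member with the widest range of group means (1.72), the nearest was TNFRSF9, the T-cell costimulatory receptor 4-1BB, at a distance of 0.14. TNFRSF9 lay at 4.81 to 10.7 CPM untreated, 8.13 to 11.4 CPM at 1.5 h, 9.4 to 12.2 CPM at 7 days and 3.15 to 4.46 CPM with knockdown, and it remained the nearest without untreated replicate 5, an alternative chosen after seeing the data. FOXA1 (0.14) and RHBDL2 (0.19) came next, with 0 to 21 and 1 to 18 counts per library, too few to fix a pattern.

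For DUSP1, the member with the highest mean CPM, the nearest was ZBTB20 at a distance of 0.066, but its untreated libraries ran from 1.09 to 19.2 CPM, and replicate 5 was the highest. Without that library the distance was 0.36 and ZBTB20 was at rank 192. RYR3 and C9orf24 (both 0.12) had 4 to 23 and 1 to 13 counts per library and went to ranks 27 and 53, and CLDN1, CCL7 and OPRD1 were then nearest. The likeness of ZBTB20 to DUSP1 therefore rests on 1 library.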

How the data were processed

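RNA of 20 libraries was sequenced as stranded mRNA, and the authors deposited raw read counts per gene. The submitters' processing notes name bcl2fastq, Trimmomatic, STAR 2.4.2a and hg19; the counting tool, annotation and strand setting are not given in the sources used here. Counts were tested with edgeR 4.0.16 (R 4.3.3): filterByExpr with a minimum count of 10, TMM factors, a quasi-likelihood fit on group over all libraries and Benjamini-Hochberg adjustment over 14992 genes. Genes were called above 0.5 in absolute log2 fold change with an adjusted p under 0.05. The standard error is the absolute log2 fold change divided by the square root of F. Log2 CPM used a prior count of 2. The steps were tested on simulated counts. Members and lists were chosen with earlier results of these data known. Members were named in full, and from each list up to 4 called genes by size of change. Alternatives were RLE and upper-quartile factors, other filters, DESeq2 1.42.0, 2-group fits, replicate block, lane, other call rules and leaving out each library.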

Additional observations from a re-analysis of the deposited data

Results flagged for a closer look

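In 4 of 36 sets of 5 libraries (9 phosphatases in 4 groups) a single library lay apart from the rest. The rule was a gap to the nearest library above 0.71 of the range, which chance gives in about 1 in 20. A small gap also passes where the other libraries lie close together. The sets share the same libraries, so their number was not tested against chance. DUSP7 was at 85.7 CPM in untreated replicate 5, against 42.3 to 50.2 CPM in the other untreated libraries. DUSP2 was at 26.7 CPM in 1.5 h replicate 2, against 30.6 to 31.1 CPM. DUSP16 was at 32.5 CPM in 7 day replicate 2, against 36.5 to 37.0 CPM, and at 36.0 CPM in knockdown replicate 4, against 40.1 to 40.5 CPM.

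The change from untreated cells differed between 7 days and 1.5 h for DUSP2, by -1.09 on the log2 scale, and for DUSP8, by -0.59, tested as the direct contrast of the irradiated groups in edgeR's quasi-likelihood test (Benjamini-Hochberg adjusted p 3.16e-09 and 0.000149).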

How the results depend on the processing

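Under the alternatives 824 results on fold changes of the 8 phosphatases were set against the main fit. Of these 766 kept their direction and their call. With direction kept, 32 gained a call and 6 lost it. The other 20 turned direction, some of them also gaining a call. Adjusted p alone and Bonferroni adjustment change only the call rule, so fold changes there stayed as they were. The causes of the changes were not tested.

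With sequencing lane as a factor the link to untreated cells rests on replicate 5 alone. Against untreated, all genes called then went from 548 to 3820 at 1.5 h, 4657 to 6188 at 7 days and 1906 to 4088 with knockdown. Phosphatases called were 4 in each of these comparisons. The calls added were DUSP5 (0.99) and DUSP7 (-0.57) at 1.5 h, where DUSP8 was lost (0.21), DUSP5 (0.85) and DUSP7 (-0.74) at 7 days, and DUSP5 (0.76), DUSP7 (-1.17) and DUSP2 with knockdown. Directions turned there for DUSP7 at 1.5 h (also -0.57 within lane 3), DUSP2 (0.28), DUSP6 (0.01) and DUSP8 (-0.34) at 7 days, DUSP2 (0.55) and DUSP16 (-0.13) with knockdown, and DUSP5 at 7 days against knockdown (0.09, and 0.08 within lane 5). Upper-quartile factors turned DUSP7 at 7 days (0.01) and DUSP2 with knockdown (0.00).

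By adjusted p alone, which drops the fold threshold, genes called were 3191 at 1.5 h, 9620 at 7 days and 6078 with knockdown against untreated, 9131 for 7 days against 1.5 h and 8609 for 7 days against knockdown, and phosphatases 6, 4, 5, 4 and 4. Bonferroni adjustment left 256 genes at 1.5 h, 899 with knockdown, 2506 for 7 days against knockdown, and 1 phosphatase for 7 days against 1.5 h. For 7 days against 1.5 h all genes called did not go below 2965 under any alternative. With knockdown DUSP7 was called lower, beside DUSP10, under RLE factors, no filter, 10 counts in every library and DESeq2.

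Leaving out each library in turn gave 1 to 2 phosphatases called with knockdown against untreated, and 1798 to 2146 of all genes. The fold change ran from -0.11 to 0.19 for DUSP7, -0.02 to 0.15 for DUSP8 and -0.12 to 0.00 for DUSP6 at 7 days, and from -0.14 to 0.03 for DUSP2 and -0.04 to 0.10 for DUSP16 with knockdown.

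Replicate numbers gave little sign of pairing the libraries. Over 25 same-number pairs the correlation of deviations from group means ran from -0.25 to 0.12, with 1 pair over 0.1. Pairs of different number were not computed for reference, so whether cultures were matched is not settled. A replicate block turned DUSP7 at 7 days against untreated to 0.01.

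DUSP4 had 0 to 8 counts per library, under the filter, and was tested only where no filter was set.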
